A study of Mus musculus with 4 samples.

Results

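Cells of neonatal mouse brain that carried Mrc1, the mannose receptor of tissue macrophages, together with Csf1r, the receptor through which macrophages and microglia receive their survival signal, were described here. Cells were chosen by their counts of these and 1 further gene. A cell was a member if it held at least 20 gene counts, at least 5 Mrc1 counts, at least 3 Csf1r counts and fewer than 5 counts of Cldn5, a tight junction gene of endothelial cells. The rule found 2386 such cells among 794833 kept cells, of 863580 cells in all, which was 0.300% of the kept cells. They are called Mrc1+ Csf1r+ cells below, because only some of them carried the further marker of border-associated macrophages, Lyve1. Microglia, the comparison population, were the 10556 kept cells with at least 3 Csf1r counts, at least 3 counts of the fractalkine receptor Cx3cr1 and fewer than 5 Mrc1 counts.

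The cells came from 4 coverslips imaged with MERFISH, which counts single transcripts of a preset list of genes inside tissue by giving each gene a binary code that is read out over several rounds of fluorescent hybridization. Coverslips 1 and 2 were male and coverslips 3 and 4 female. Every coverslip held 2 coronal sections, 10 µm thick, through the barrel cortex, 1 from a wild-type mouse and 1 from a Cx3cl1(-/-) mouse, which lacks the chemokine fractalkine in all cells. All mice were 5 days old and had lost the whiskers of the right snout 24 hours before, at postnatal day 4, so no unlesioned mouse served as a control. The series' title names microglia, astrocytes, synapse remodeling and Wnt signaling as its subject. No column of the files gives the genotype, the hemisphere or the brain region of a cell, so every value below pools both genotypes, and genotypes and hemispheres were not compared.

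Border-associated macrophages are the resident macrophages of the brain's outer compartments: the leptomeninges, the choroid plexus and the sleeves of tissue around vessels. They take up material from the surrounding fluid through scavenger and lectin receptors such as Mrc1, and many of them carry Lyve1, a hyaluronan receptor. Microglia are the macrophages of the brain tissue itself, and P2ry12 and Tmem119 are genes by which they are usually told apart from other macrophages. Both arise from yolk sac precursors and depend on Csf1r and on the ETS factor PU.1, which binds purine-rich sites in the promoters of macrophage genes.

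The promoters of Mrc1 and P2ry12 are shown because the gates used Mrc1 and because P2ry12 differed between Lyve1-high cells and microglia, as given below. Each stretch runs from 250 bases before to 50 bases after the gene's start in RefSeq on build GRCm38.p6, 5′ to 3′ on the gene's strand, and capitals mark GAGGAA or its reverse complement, the core of the sequence that PU.1 prefers. The Mrc1 promoter, chr2:14229164-14229463 on the plus strand, held 3 matches, all on the opposite strand. The P2ry12 promoter, chr3:59262936-59263235 on the minus strand, held 0. Searched on both strands, the motif occurred in 28.3% of the 32851 promoters of this table.
Mrc1: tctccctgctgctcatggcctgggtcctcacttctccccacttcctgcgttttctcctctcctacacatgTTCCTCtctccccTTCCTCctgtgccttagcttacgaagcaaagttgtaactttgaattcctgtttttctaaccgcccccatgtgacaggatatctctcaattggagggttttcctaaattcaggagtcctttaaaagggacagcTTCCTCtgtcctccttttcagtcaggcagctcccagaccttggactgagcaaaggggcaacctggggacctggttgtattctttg
P2ry12: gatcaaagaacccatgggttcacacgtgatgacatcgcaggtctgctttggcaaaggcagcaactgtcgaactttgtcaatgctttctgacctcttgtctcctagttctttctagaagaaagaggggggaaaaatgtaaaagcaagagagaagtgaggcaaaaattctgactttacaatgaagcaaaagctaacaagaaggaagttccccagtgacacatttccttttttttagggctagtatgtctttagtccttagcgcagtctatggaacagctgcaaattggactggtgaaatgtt

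The files held 33519204, 37922304, 44924894 and 76555311 gene counts on coverslips 1 to 4. Codes assigned to no gene, here called blanks, show how often a code is misread. They accounted for 1.16% to 1.48% of the counts. The median gene count of an Mrc1+ Csf1r+ cell was 186, 152, 202 and 241.5 on coverslips 1 to 4, and that of a microglial cell 139, 125, 154 and 190. Median cell volume was 800 to 864 units in Mrc1+ Csf1r+ cells and 821 to 938 units in microglia. Differences between populations are therefore given per unit of cell volume, and levels as counts per cell.

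The Mrc1+ Csf1r+ cells numbered 555, 501, 466 and 864 on coverslips 1 to 4. They made up 0.322%, 0.259%, 0.241% and 0.367% of the kept cells, a mean of 0.297% ± 0.0581 (SD, n = 4). Of the cells in either gate, 18.5% ± 2.23 (SD, n = 4) were Mrc1+ Csf1r+ cells. The share varied more between sections than between coverslips, from 0.199% to 0.466% over the 8 sections told apart by position. The female mean was 0.304% and the male mean 0.291%, and an exact two-sided permutation test gave p = 1, where the smallest p that 2 against 2 coverslips allow is 0.333.

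The cells of the gate were divided by Lyve1, a gene the gate did not use. Lyve1-zero cells with few Cx3cr1 counts lay at the outer edge more often than Lyve1-zero cells as a whole, as given below. The Lyve1 classes are therefore not taken as uniform kinds of cell. Of the 2386 cells, 1160 (48.6%) held at least 3 Lyve1 counts and are called Lyve1-high, and 922 (38.6%) held none and are called Lyve1-zero; the others held 1 or 2 counts. Lyve1-high cells made up 47.6%, 53.5%, 51.7% and 44.8% of the gate on coverslips 1 to 4. Among microglia, 0.385% ± 0.0954 (SD, n = 4) held at least 3 Lyve1 counts. Lyve1-high cells were a large share of the gate on every coverslip and in every section, where they ranged from 38.3% to 67.1%.

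Lyve1-high and Lyve1-zero cells also differed in the gating genes, which are described here and were not tested. Median Mrc1 was 19, 14, 16 and 18 counts in Lyve1-high cells on coverslips 1 to 4 and 7 counts in Lyve1-zero cells on all 4. Median Cx3cr1 was 2, 1, 2 and 2 counts in Lyve1-high cells and 17, 10, 14 and 21 in Lyve1-zero cells, against 11, 10, 10 and 11 in microglia. At least 15 Cx3cr1 counts were found in 0% to 1.55% of Lyve1-high cells and in 39.0% to 70.2% of Lyve1-zero cells. Lyve1-zero cells thus carried as many Cx3cr1 counts as microglia or more, although the microglia gate had required Cx3cr1 and theirs had not. Csf1r averaged 11.6, 7.92, 11.5 and 14.6 counts in Lyve1-high cells and 17.0, 13.9, 18.7 and 30.7 in Lyve1-zero cells. The lack of Lyve1 counts in Lyve1-zero cells followed from how they were chosen. In Cx3cr1 and, as given below, in P2ry12, Tmem119 and the share at the outer edge, they were nearer to microglia than to Lyve1-high cells. The name border-associated macrophages is therefore not applied to the gate as a whole.

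**Figure D1:**
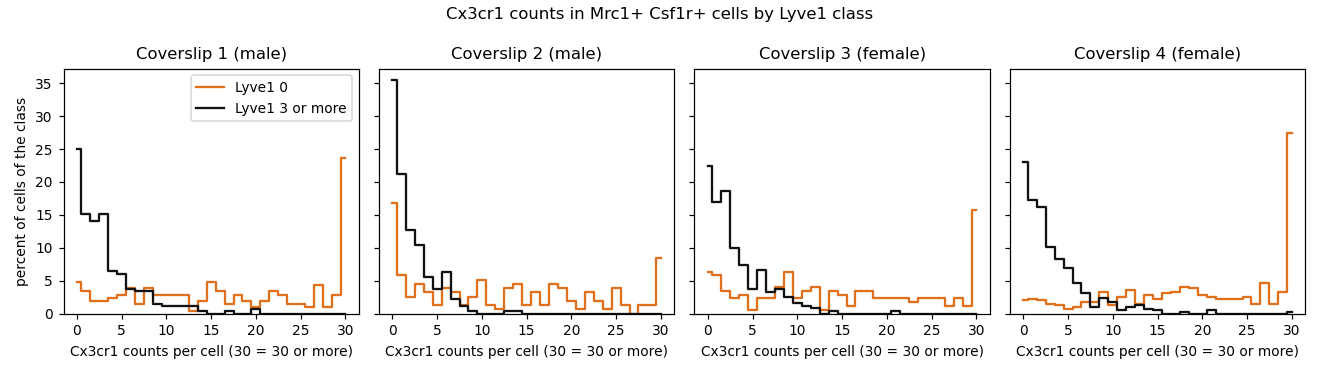
Distribution of Cx3cr1 counts per cell (x axis, 30 stands for 30 or more) as percent of the cells of each class (y axis) on the 4 coverslips; black, Mrc1+ Csf1r+ cells with 3 or more Lyve1 counts; orange, those with 0. On each coverslip the black line is highest at 0 counts, while the orange line is spread over the whole range, with 39.0% to 70.2% of its cells at 15 counts or more.

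Values on either side of the gate's limits are given as a description. The 322 cells with exactly 5 Mrc1 counts, just inside the gate, averaged 0.969 Lyve1 counts, and 14.3% were Lyve1-high. The 491 cells with 4, just outside, averaged 0.682, and 9.16% were Lyve1-high. Cells with 3 and with 2 Csf1r counts were Lyve1-high in 48.8% of 125 and 50.8% of 124 cells. Cells with 4 and with 5 Cldn5 counts were Lyve1-high in 75.8% of 62 and 59.7% of 62 cells, so the Cldn5 limit also turned away Lyve1-high cells.

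The 2 Lyve1 classes also differed in position. On the maps Lyve1-high cells lay along the outer edge of the sections and along lines in the interior, whereas Lyve1-zero cells were mostly scattered within the tissue. Within 100 coordinate units of the outer edge lay 39.4%, 46.6%, 57.3% and 42.6% of the Lyve1-high cells on coverslips 1 to 4. The share was 8.70%, 9.74%, 11.0% and 6.17% for Lyve1-zero cells, 4.83%, 8.03%, 5.11% and 5.35% for microglia, and 4.17% to 5.02% for all other cells. The Lyve1-high share exceeded the Lyve1-zero share by 37.6 percentage points ± 6.42 (SD, n = 4). The groups did not overlap, and the exact two-sided sign-flip permutation test gave p = 0.125, the smallest that 4 coverslips allow (adjusted p = 0.170 over 19 tests of position). Lyve1-zero cells exceeded microglia by 3.08 points ± 2.29 (SD, n = 4), higher on 4 of 4 coverslips, with the same exact p of 0.125. The median distance to the edge did not separate the classes. It was 1626, 336, 50 and 401 units for Lyve1-high cells on coverslips 1 to 4 and 637, 674, 660 and 633 units for Lyve1-zero cells, a difference of -47.7 units ± 709 (SD, n = 4, exact sign-flip p = 1, adjusted p = 1). Lyve1-high cells were farther from the edge on coverslip 1 and nearer on the other coverslips. Microglia lay at a median of 1130, 965, 1131 and 1096 units, farther than Lyve1-zero cells on all 4 coverslips (difference -430 units ± 93.2, exact p = 0.125, adjusted p = 0.170).

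**Figure D2:**
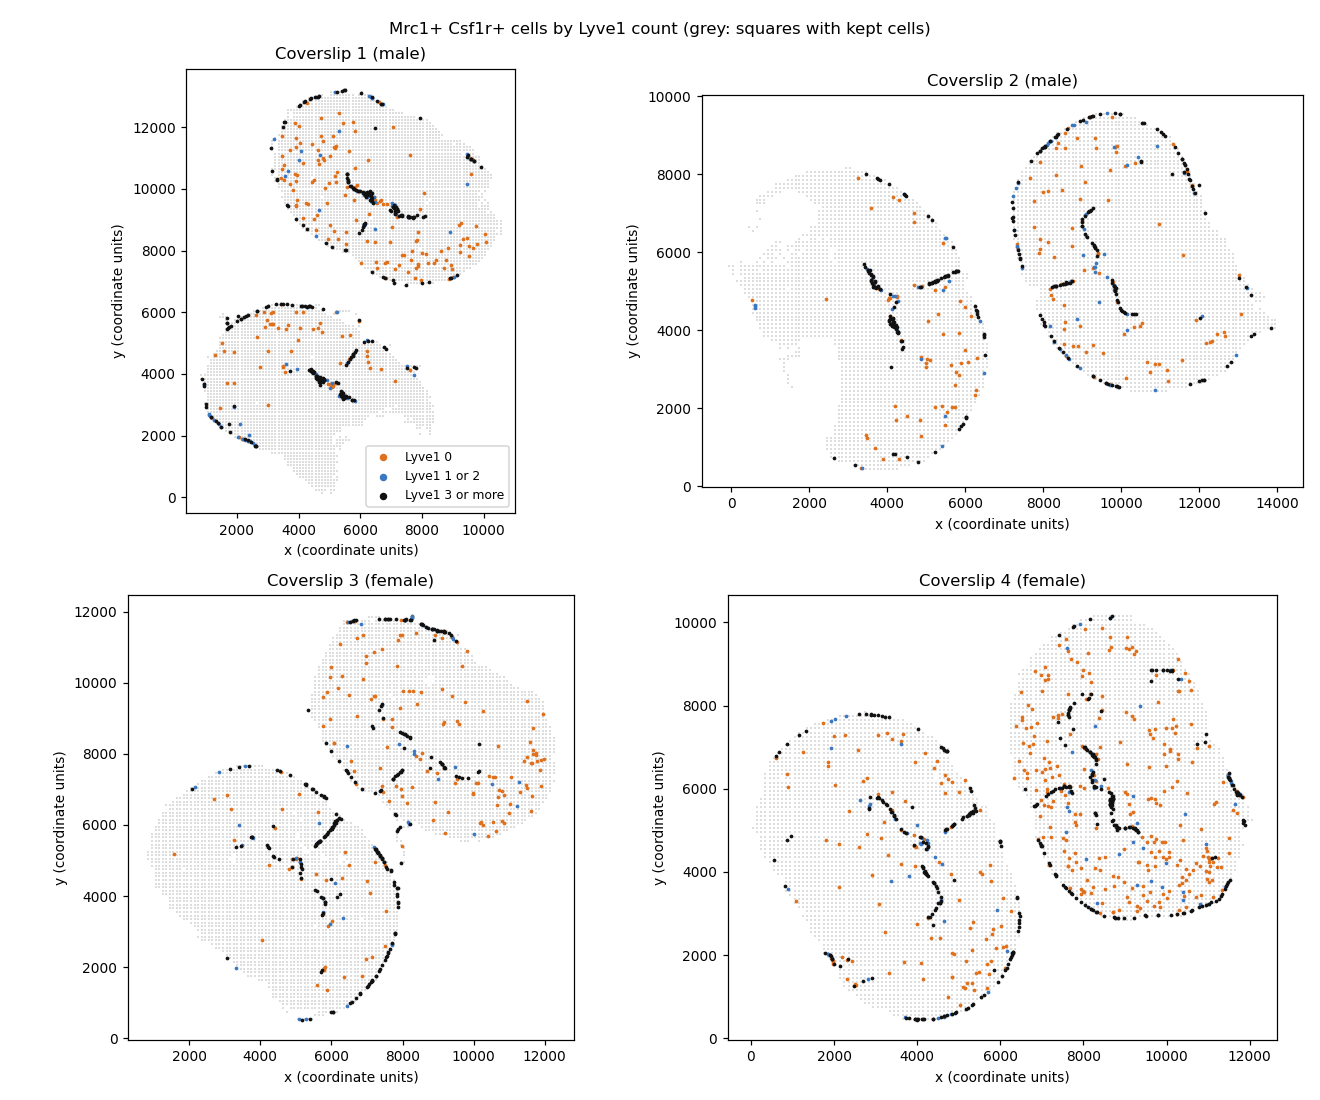
Position of the Mrc1+ Csf1r+ cells on the 4 coverslips (x and y axes, coordinate units of the files); black, 3 or more Lyve1 counts; blue, 1 or 2; orange, 0; grey, squares that hold kept cells. Black points trace the outer edge and lines in the interior of both sections of each coverslip, and orange points are scattered within the tissue.

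Most Lyve1-high cells lay beside cells rich in Wnt5a, a ligand made by the fibroblasts of the developing meninges. A Wnt5a-rich cell, one with at least 3 Wnt5a counts and fewer than 5 Mrc1 and 3 Csf1r counts, was found within 30 units of 84.1%, 82.1%, 81.7% and 84.0% of Lyve1-high cells on coverslips 1 to 4. The share was 19.8%, 26.6%, 24.4% and 19.8% for Lyve1-zero cells and 12.8%, 11.6%, 14.8% and 20.5% for microglia. Lyve1-high cells stood apart from both on every coverslip, while Lyve1-zero cells and microglia overlapped (difference 7.76 points ± 6.52, SD, n = 4, exact sign-flip p = 0.25, adjusted p = 0.297).

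Vessels were near as well. A cell with at least 5 Cldn5 counts lay within 30 units of 87.5%, 91.8%, 97.5% and 93.5% of Lyve1-high cells, of 40.1%, 44.2%, 36.6% and 46.3% of Lyve1-zero cells and of 39.9%, 37.3%, 41.6% and 44.8% of microglia. Lyve1-zero cells and microglia differed by 0.911 points ± 4.87 (SD, n = 4, exact sign-flip p = 0.625, adjusted p = 0.660), and Lyve1-high cells exceeded Lyve1-zero cells by 50.8 points ± 6.73 (exact p = 0.125, adjusted p = 0.170). Lyve1-high cells were also close to each other, with a median of 30.1 to 32.8 units to the nearest cell of their kind, against 125 to 166 units among Lyve1-zero cells.

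Lyve1-zero cells with few Cx3cr1 counts differed in position from Lyve1-zero cells as a whole. The 112 Lyve1-zero cells with fewer than 3 Cx3cr1 counts, 21, 39, 27 and 25 on coverslips 1 to 4, were within 100 units of the edge in 33.3%, 25.6%, 48.1% and 36% of cases. A Wnt5a-rich cell lay within 30 units of 71.4%, 61.5%, 59.3% and 36% of them, and a Cldn5-rich cell of 81.0%, 71.8%, 63.0% and 64%. The outer and Wnt5a-rich shares were above those of all Lyve1-zero cells and below those of the Lyve1-high cells on every coverslip, and the difference was not tested.

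**Figure D3:**
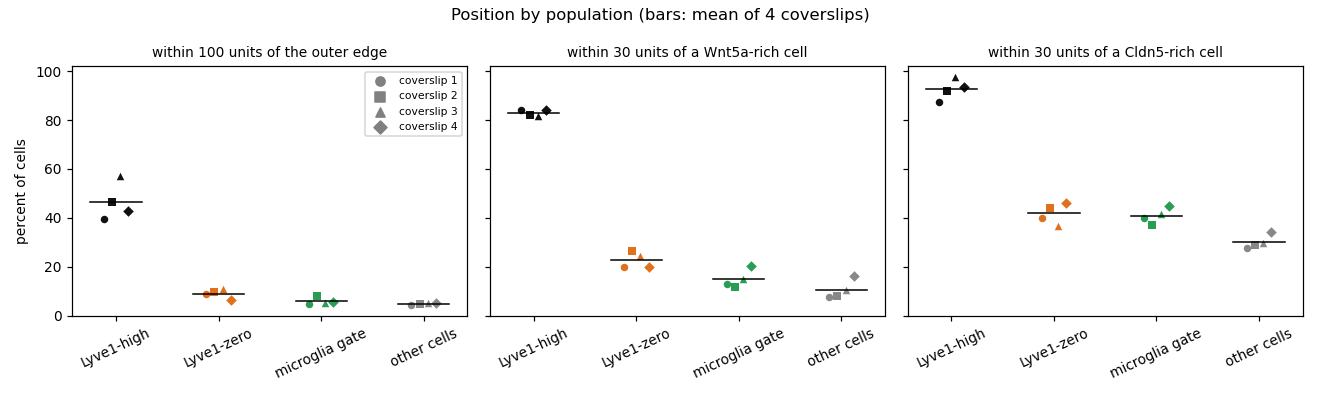
Percent of cells (y axis) within 100 units of the outer edge, within 30 units of a Wnt5a-rich cell and within 30 units of a Cldn5-rich cell, for Lyve1-high cells, Lyve1-zero cells, microglia and all other kept cells; points are coverslips and bars their mean (n = 4). Lyve1-high cells lie above the other populations in all 3 panels, and Lyve1-zero cells lie near microglia.

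As a whole, Mrc1+ Csf1r+ cells differed from microglia in many of the 136 genes that the gates did not use. By edgeR's quasi-likelihood test with coverslip as a block and Benjamini-Hochberg adjustment at 0.05, and requiring a level above every blank on every coverslip, 39 genes were higher (28.7% of those tested) and 28 lower (20.6%). Lyve1 led the higher genes. It averaged 5.77, 5.48, 5.07 and 6.12 counts per Mrc1+ Csf1r+ cell and 0.0628, 0.0803, 0.0998 and 0.0836 per microglial cell, a level that did not exceed the blanks. The log2 difference was 6.15 ± 0.14 (SE, adjusted p = 7.7e-10), and the coverslips of the populations did not overlap.

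P2ry12, Tmem119 and Itgam were lower in the whole gate, by less than 2-fold. P2ry12, a purinergic receptor that steers microglial processes, averaged 1.86, 1.45, 1.46 and 2.40 counts per Mrc1+ Csf1r+ cell against 3.00, 2.66, 2.58 and 2.52 in microglia (log2 difference -0.58 ± 0.13, adjusted p = 0.0031). Coverslip 4 stood closest to microglia. Tmem119, a microglial membrane protein, had a log2 difference of -0.59 ± 0.13 (adjusted p = 0.0027), and Itgam, the CD11b integrin chain of myeloid cells, -0.68 ± 0.10 (adjusted p = 2.0e-04).

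These values averaged over the Lyve1 classes of the gate, which differed widely. P2ry12 averaged 0.447, 0.358, 0.539 and 0.403 counts per Lyve1-high cell on coverslips 1 to 4, and 4.12, 3.78, 2.81 and 4.43 per Lyve1-zero cell. Lyve1-high cells were far below Lyve1-zero cells and microglia on every coverslip, 5.60-fold below microglia per volume (log2 difference -2.48 ± 0.15). Lyve1-zero cells were above microglia on all 4 coverslips, but the difference of 0.35 ± 0.11 did not pass the test (adjusted p = 0.071). Tmem119 averaged 0.867, 0.560, 0.846 and 0.946 counts per Lyve1-high cell and 4.39, 2.41, 3.15 and 6.21 per Lyve1-zero cell, against 3.46, 2.35, 3.04 and 3.83 per microglial cell. Lyve1-high cells were again lowest on every coverslip, with a log2 difference from microglia of -1.84 ± 0.14, and the difference of Lyve1-zero cells, 0.16 ± 0.11, did not pass the test (adjusted p = 0.31).

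Itgam was also lower in Lyve1-high cells than in microglia (-1.49 ± 0.14). C1qa, a chain of the complement starter C1q, averaged 6.50, 4.95, 7.61 and 9.29 counts per Lyve1-high cell and 6.06, 6.35, 7.74 and 9.06 per microglial cell. The 2 populations overlapped, with a log2 difference of 0.09 ± 0.10 (adjusted p = 0.46). In Lyve1-zero cells C1qa averaged 9.44, 7.55, 11.9 and 16.2 counts and was higher than in microglia (0.46 ± 0.09, adjusted p = 0.023). Ptprc, the leukocyte antigen CD45, stayed under 1 count per cell in all 3 populations and was called in none of the comparisons.

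Apoe, a lipid carrier made by macrophages and astrocytes, was the most abundant of the macrophage genes. It averaged 62.8, 49.6, 81.6 and 75.8 counts per Lyve1-high cell, 37.4, 33.5, 47.6 and 44.3 per Lyve1-zero cell and 29.0, 25.3, 37.9 and 37.3 per microglial cell. Lyve1-high cells were above microglia on every coverslip, 2.30-fold per volume (log2 difference 1.20 ± 0.07). Lyve1-zero cells were above microglia by 0.21 ± 0.10, which did not pass the test (adjusted p = 0.19). Cells beside the Lyve1-high cells held 39.3% of their Apoe per volume.

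**Figure D4:**
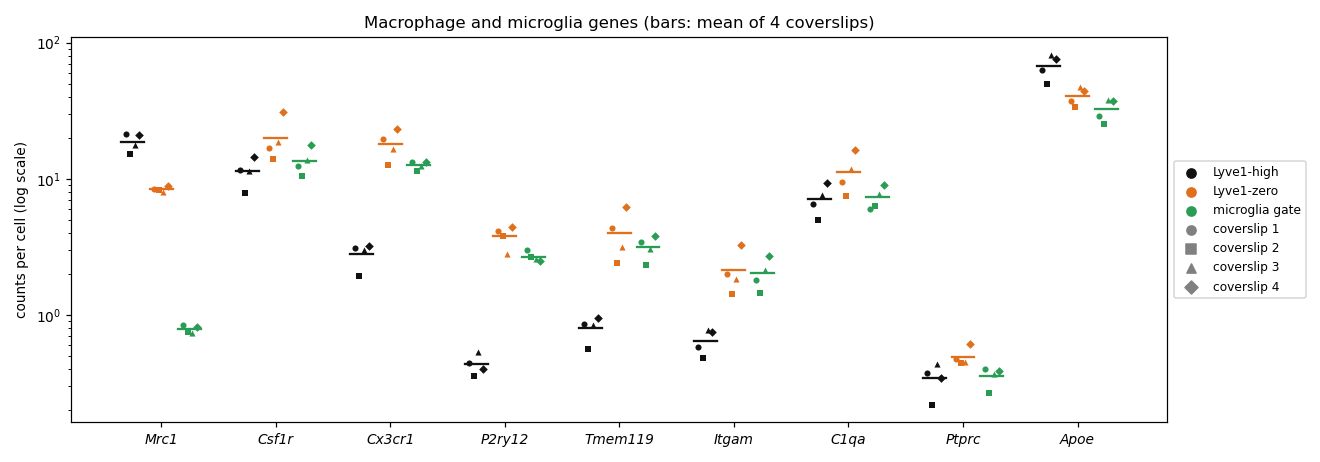
Counts per cell (y axis, log scale) of macrophage and microglia genes in Lyve1-high cells, Lyve1-zero cells and the microglia gate; points are coverslips and bars their mean (n = 4). P2ry12 and Tmem119 of Lyve1-high cells lie below both other populations, and Mrc1 and Apoe lie above them; Mrc1, Csf1r and Cx3cr1 were used by the gates.

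Lyve1-high cells against microglia gave 46 genes higher (34.1% of 135 tested) and 31 lower (23%). Lyve1-zero cells against microglia gave 5 higher (3.7%) and 15 lower (11.1%). These 5 were the frizzled receptor Fzd7 (log2 difference 0.84 ± 0.14), the Wnt carrier Wls (0.65 ± 0.12), C1qa, the co-receptor Lrp5 (0.43 ± 0.07) and the syndecan Sdc4 (0.40 ± 0.10). Of the 39 genes higher in the whole gate, 38 were also higher in Lyve1-high cells and 4 in Lyve1-zero cells. Both subsets were set against the same microglia, but each fit estimated the spread between coverslips on its own. Differences of like size therefore did not pass equally. Ryk was called in Lyve1-high cells at 0.45 ± 0.14 (adjusted p = 0.0023). In Lyve1-zero cells it was not called at -0.50 ± 0.13 (adjusted p = 0.0504). The numbers of called genes in the 2 fits are thus not a measure of how far each subset differed.

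Wnt ligands bind frizzled receptors with co-receptors on the receiving cell, and their signal runs through beta-catenin to TCF and LEF factors or along routes that do not use beta-catenin. Of 17 ligands on the panel, Wnt4 and Wnt5a were higher and Wnt7b lower in Mrc1+ Csf1r+ cells than in microglia. The other 14 were not called. The shares over all genes tested were 28.7% higher and 20.6% lower. Wnt2, Wnt2b, Wnt5b, Wnt6, Wnt7a, Wnt9a and Wnt11 were among the 14 because they did not exceed all blanks, although their adjusted p was below 0.05. The median log2 difference of the 17 was 0.40, against 0.24 over all genes tested. Wnt5a, a ligand of beta-catenin-independent signalling, averaged 1.31, 1.23, 1.31 and 1.89 counts per Lyve1-high cell, 0.353, 0.266, 0.209 and 0.172 per Lyve1-zero cell and 0.160, 0.124, 0.155 and 0.197 per microglial cell. The difference of the whole gate was 2.60 ± 0.15 (adjusted p = 5.1e-07), and that of Lyve1-high cells 3.32 ± 0.15. Wnt4, a ligand of both routes, averaged 2.75, 2.05, 2.41 and 3.75 counts per Lyve1-high cell and 0.329, 0.264, 0.280 and 0.423 per microglial cell (whole gate 2.45 ± 0.11, adjusted p = 8.7e-08). Lyve1-zero cells, at 0.589, 0.506, 0.215 and 0.409 counts, overlapped with microglia for Wnt4. Wls, which carries Wnt proteins to the cell surface, was higher in the whole gate (1.12 ± 0.11, adjusted p = 1.6e-05).

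Among 19 Wnt receptors and co-receptors, 9 were called higher, none lower and 10 neither, against 28.7% higher and 20.6% lower over all genes. Their median log2 difference was 0.75, against 0.24. Ror2, a receptor tyrosine kinase for Wnt5a, averaged 0.754, 0.608, 0.776 and 0.912 counts per Lyve1-high cell and 0.0971, 0.0844, 0.109 and 0.150 per microglial cell (whole gate 2.27 ± 0.17, adjusted p = 2.7e-06). Fzd2, a frizzled receptor, averaged 0.822, 0.388, 0.884 and 0.889 counts per Lyve1-high cell and 0.118, 0.0664, 0.122 and 0.152 per microglial cell (2.11 ± 0.14, adjusted p = 1.5e-06). Adgra2, which with Reck passes Wnt7 signals to brain endothelium, had a whole-gate difference of 1.84 ± 0.15 (adjusted p = 4.6e-06). Lrp5, a co-receptor of the beta-catenin route, had 0.56 ± 0.08 (adjusted p = 2.5e-04) and was among the few genes higher in Lyve1-high and in Lyve1-zero cells alike. It averaged 2.62, 2.29, 2.76 and 3.07 counts in the former, 2.70, 2.03, 2.76 and 3.61 in the latter and 1.67, 1.55, 1.91 and 2.32 in microglia, so that on each coverslip both subsets exceeded microglia.

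Among 17 intracellular genes of the pathway, Tcf7l1, Lef1 and Psmb4 were higher, Gsk3b, Apc, Apc2, Tcf7l2 and Prkce were lower and 9 were not called (median 0.08, against 0.24 over all genes). Of 7 secreted or membrane antagonists, Trabd2b and Sfrp1 were higher and 5 were not called (median 0.31). Over all genes tested, 28.7% were called higher and 20.6% lower. Trabd2b, a membrane protease that inactivates Wnt proteins, averaged 0.792, 0.825, 1.23 and 1.12 counts per Lyve1-high cell and 0.0638, 0.0736, 0.0839 and 0.0935 per microglial cell (whole gate 3.02 ± 0.15, adjusted p = 2.1e-07). Of 10 glypicans and syndecans, proteoglycans that bind Wnt and other ligands at the cell surface, 6 were higher, 3 lower and Gpc2 not called (median 0.76). Gpc3 rose most among them, with 1.25, 1.37, 1.92 and 1.86 counts per Lyve1-high cell against 0.152, 0.127, 0.168 and 0.220 per microglial cell (2.72 ± 0.16, adjusted p = 5.6e-07). Sdc3 was lower (-1.01 ± 0.10, adjusted p = 2.1e-05). Col4a6, a basement membrane collagen chain, had 1.28, 0.866, 1.25 and 1.38 counts per Lyve1-high cell and 0.0662, 0.0642, 0.0895 and 0.0836 per microglial cell (3.28 ± 0.14, adjusted p = 8.7e-08). Vim, an intermediate filament of mesenchymal and glial cells, had a difference of 1.53 ± 0.13 (adjusted p = 1.0e-05). The microglial levels of Col4a6, Trabd2b, Gpc3, Wnt5a, Ror2 and Fzd2 did not exceed all blanks on every coverslip, so the sizes of these differences rest on a level close to false decoding.

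**Figure D5:**
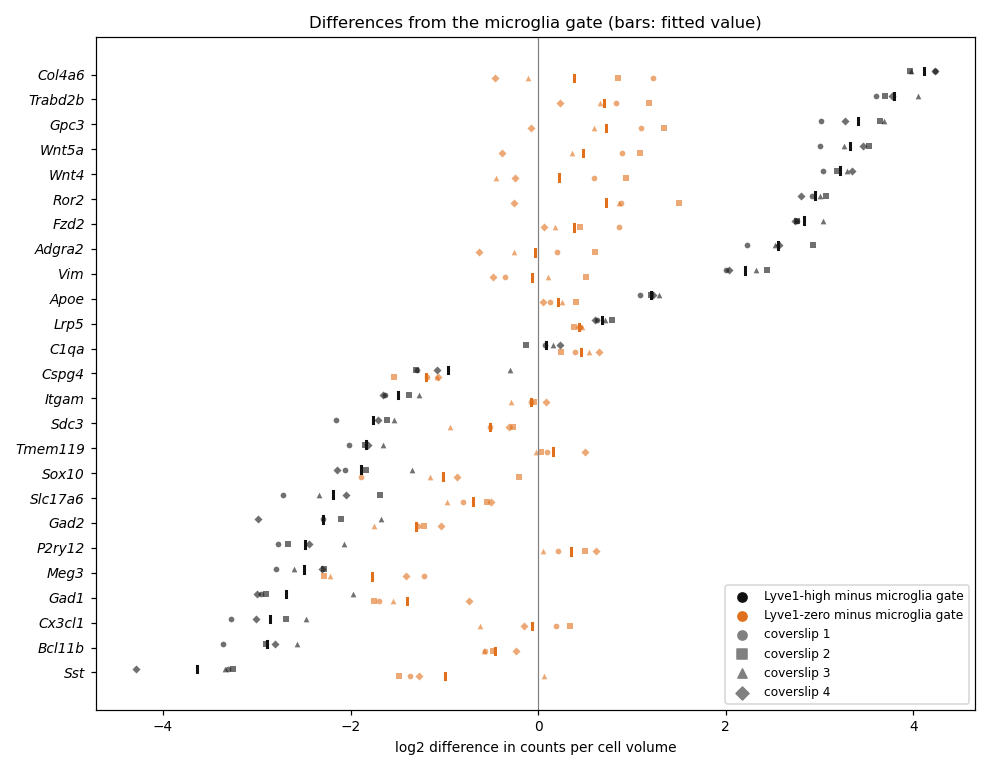
Log2 difference in counts per cell volume (x axis) of Lyve1-high cells (black) and Lyve1-zero cells (orange) from the microglia gate, for the genes named in the whole-gate comparison and the macrophage genes; points are coverslips and bars the fitted value (n = 4). Black bars run from -3.64 for Sst to 4.12 for Col4a6, and the orange bars of these 2 genes lie closer to 0.

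Most panel genes, called or not, were at a higher level per volume in the cells neighbouring Lyve1-high cells than in the Lyve1-high cells: 110 of the 136 genes tested and 28 of the 39 higher in the whole gate. Per volume, the neighbours held 119% of the Lyve1-high level of Wnt5a, 119% of Ror2, 128% of Fzd2, 174% of Adgra2 and 176% of Vim, and 94.6% of Wnt4, 95.3% of Col4a6, 94.6% of Gpc3 and 93.3% of Trabd2b. The neighbours held 4.27% of the Lyve1-high level of Mrc1 and 5.66% of that of Lyve1. Among the other higher genes they held 39.3% of Apoe, 50.2% of Fzd9, 57.3% of Sdc4 and 76.5% of Lrp5. A neighbour here is a kept cell of neither gate within 30 units of a Lyve1-high cell. Of 8 markers of meningeal fibroblast-like cells, 5 were higher in the whole gate, Wnt5a, Wnt4, Gpc3 and Fzd2 among them, against 28.7% of all genes tested. Their summed level was 7.34 to 11.6 counts per Lyve1-high cell, 1.63 to 3.01 per Lyve1-zero cell and 1.46 to 2.30 per microglial cell. It was 11.7 to 13.9 per Wnt5a-rich cell, which Wnt5a itself had selected. Wnt5a-rich cells also held 46.3 to 104 summed counts of neuron markers, 26.0 to 37.9 of astrocyte markers and 13.1 to 21.2 of vessel and mural markers. Markers of astrocytes were higher for 4 of 7 genes, against the same 28.7%, with 18.1 to 31.5 summed counts per Lyve1-high cell and 10.0 to 17.9 per microglial cell. How far transcripts of adjoining cells fall inside the outlines of Lyve1-high cells was not tested.

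When only cells without a Wnt5a-rich cell within 30 units entered, 1032 Mrc1+ Csf1r+ cells and 8895 microglia remained, with 20 genes higher (14.7%) and 17 lower (12.5%). Of the 39 genes, 19 were still called higher. Lyve1 (4.80 ± 0.16), Gpc3 (2.05 ± 0.23), Wnt5a (1.46 ± 0.24) and Wnt4 (1.35 ± 0.15) were among them, at smaller values than in the whole gate. Fewer Lyve1-high cells entered this comparison, 196 of 1160. P2ry12 and Tmem119 were no longer called lower. Between the Lyve1 classes, the same restriction left 196 Lyve1-high and 721 Lyve1-zero cells. Of 135 genes tested, 36 were then higher and 15 lower in Lyve1-high cells, against 43 and 23 without it.

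The lower genes, 20.6% of all tested, included 9 of 12 neuron markers, and none of the 12 was called higher. Meg3, a noncoding RNA abundant in neurons, averaged 3.75, 1.90, 2.98 and 5.90 counts per Mrc1+ Csf1r+ cell and 11.0, 9.30, 15.6 and 19.5 per microglial cell (log2 difference -1.95 ± 0.13, adjusted p = 1.6e-06). The gate lay below microglia on every coverslip. Gad1 and Gad2, which make the transmitter GABA, had differences of -1.80 ± 0.18 (adjusted p = 1.8e-05) and -1.62 ± 0.11 (adjusted p = 1.6e-06), and Sst, a neuropeptide of interneurons, -1.69 ± 0.23 (adjusted p = 1.3e-04). Summed neuron markers came to 2.54 to 5.36 counts per Lyve1-high cell, 5.38 to 16.6 per Lyve1-zero cell, 14.1 to 29.4 per microglial cell and 64.1 to 119 per other kept cell. The part of neighbouring neurons in these values was not tested. Sox10 and Cspg4, genes of the oligodendrocyte lineage, were lower as well (-1.35 ± 0.18, adjusted p = 1.3e-04, and -1.03 ± 0.16, adjusted p = 3.2e-04). In Mrc1+ Csf1r+ cells Gad1, Gad2, Sst, Sox10 and Cspg4 did not exceed all blanks on every coverslip.

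The split into 39 higher and 28 lower genes depended on the scaling. With TMM factors it was 33 and 37, with gene totals 33 and 42 and with DESeq2 33 and 38, as the median over all genes moved from 0.24 to between -0.02 and 0.07. Under each of these, 33 of the 39 higher and all 28 lower genes were still called.

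Set against each other, Lyve1-high and Lyve1-zero cells differed in 43 genes higher (31.9% of 135 tested) and 23 lower (17%) in Lyve1-high cells. These differences are per unit of cell volume, and Lyve1-high cells were smaller on every coverslip. Their median volume was 778, 751, 718 and 730 units on coverslips 1 to 4, against 955, 929, 967 and 1020 in Lyve1-zero cells. Median gene counts were 195, 158.5, 221 and 246 in Lyve1-high cells and 185, 154, 187.5 and 247 in Lyve1-zero cells. With TMM factors the split was 31 and 32, with gene totals 30 and 36 and with DESeq2 29 and 37, and the median over all genes moved from 0.50 to between 0.03 and 0.08. P2ry12 was 7.15-fold lower in Lyve1-high cells (log2 difference -2.84 ± 0.20, adjusted p = 5.6e-07) and Tmem119 3.98-fold lower (-1.99 ± 0.17, adjusted p = 1.6e-06). Cx3cl1, the ligand of Cx3cr1 and a neuronal gene, was lower too (-2.78 ± 0.27, adjusted p = 4.1e-06), on coverslips that each pool a wild-type section with a section lacking the gene. Its level in Lyve1-high cells did not exceed all blanks on every coverslip. Of the complement, leukocyte and lipid genes, Itgam and C1qa were lower and Apoe higher. The Lyve1-high and Lyve1-zero values of P2ry12 and Tmem119 per cell, given above, did not overlap.

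Against the 31.9% of all genes called higher and 17% called lower, Wnt4 and Wnt5a of 17 Wnt ligands were higher in Lyve1-high than in Lyve1-zero cells and Wnt7b was lower (-1.18 ± 0.26, adjusted p = 0.0017). Wnt5a in Lyve1-zero cells and Wnt7b in Lyve1-high cells did not exceed all blanks on every coverslip. Of 19 receptors and co-receptors 10 were higher, and of 7 antagonists 2, a share near that of all genes. Among the TCF and LEF factors, which carry the beta-catenin signal to genes, Tcf7 (2.31 ± 0.25, adjusted p = 6.7e-06), Tcf7l1 (2.05 ± 0.22, adjusted p = 6.5e-06) and Lef1 (2.26 ± 0.23, adjusted p = 6.0e-06) were higher. Their levels in Lyve1-zero cells did not exceed all blanks on every coverslip. Tcf7l2, the remaining member, was not called (0.17 ± 0.19, adjusted p = 0.45), and against microglia it was lower in Lyve1-high cells (-0.56 ± 0.14). In the same cells 6 of 7 astrocyte and 5 of 8 meningeal fibroblast markers were called higher, against 31.9% of all genes, led by Gfap (2.39 ± 0.22, adjusted p = 3.3e-06) and Wnt4 (2.99 ± 0.27, adjusted p = 2.7e-06). Per volume, 34 of the 43 genes and 110 of all 135 were at a higher level in the neighbours than in Lyve1-high cells; the part of those neighbours was not tested. With fewer than 3 Cx3cr1 counts required, 688 Lyve1-high and 112 Lyve1-zero cells were left and edgeR called 0 genes, while 26 had an unadjusted p below 0.05. P2ry12 then had a log2 difference of 1.36, in the opposite direction (adjusted p = 0.11).

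Mrc1+ Csf1r+ cells at the outer edge were compared with those further inside. The 724 outer cells, within 100 units of the edge, had 36 genes higher (26.5% of 136) and 16 lower (11.8%) than the 1662 inner cells. Trabd2b (2.30 ± 0.24), the ligand Wnt6 (2.21 ± 0.27), Gpc3 (1.76 ± 0.22), Tcf7 (1.70 ± 0.25) and the secreted antagonist Sfrp1 (1.61 ± 0.25) led the higher genes, of which Wnt6, Tcf7 and Sfrp1 did not exceed all blanks on every coverslip in inner cells. Cx3cl1 (-1.99 ± 0.27) and P2ry12 (-1.93 ± 0.23) were among the lower genes with the largest differences, and Cx3cl1 did not exceed all blanks on every coverslip in outer cells. The outer cells held a larger share of Lyve1-high cells, 532 of 724 against 628 of 1662.

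Within the Lyve1-high cells alone, 10 genes were called higher at the outer edge (7.41% of 135) and 0 lower (0%), with 25 genes at an unadjusted p below 0.05 by edgeR's test in either direction. Slc17a6, a glutamate transporter of neurons, was lower by that test (-1.47 ± 0.47, adjusted p = 0.022, on 4 of 4 coverslips) but did not exceed all blanks; it is named after its value was seen. Sfrp1 differed by 1.76 ± 0.30 (adjusted p = 1.9e-06), Trabd2b by 1.37 ± 0.28 (adjusted p = 9.4e-05) and Wnt6 by 1.21 ± 0.32 (adjusted p = 0.0058). In inner Lyve1-high cells, Sfrp1 and Wnt6 did not exceed all blanks on every coverslip. Aldh1l1, Glul and Aldoc, astrocyte genes, were also among the 10, with Aldh1l1 at 1.03 ± 0.28 (adjusted p = 0.0074). On coverslips 1 to 4 the log2 difference was 1.54, 1.26, 0.63 and 0.016 for Glul and 1.53, 1.46, 0.71 and -0.024 for Aldoc. Coverslip 4 thus showed almost no difference in these 2 genes. P2ry12 and Tmem119 were not called. Of the 10, the neighbours' level of Wnt6 and Sfrp1 was 113% and 134% of that of Lyve1-high cells per volume, and that of Trabd2b 93.3%; their part in the difference was not tested.

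Between 2 female and 2 male coverslips, edgeR called 0 of 136 genes in Mrc1+ Csf1r+ cells, and 8 had an unadjusted p below 0.05. The lowest adjusted p was 0.16, for Sst, with a log2 difference of 1.28 ± 0.29, female minus male. Lyve1 had a log2 difference of -0.49 ± 0.20 (adjusted p = 0.69). The difference between Mrc1+ Csf1r+ cells and microglia did not pass the test of a change with sex for any of 136 genes (lowest adjusted p = 0.84, 3 at an unadjusted p below 0.05). DESeq2 called 1 gene higher in females, Sst, and scaling by cell volume called 3, Sst, Gad1 and Syt6.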

How the data were processed

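The series measured RNA in mouse brain sections by MERFISH on 4 coverslips, each deposited as 1 table of cells. The authors deposited, per the file headers, unnormalized counts of 140 genes and 40 blanks for every segmented cell. The headers also give each cell's volume and centre, which are neither counts nor normalized values, in units they do not name. The decoding and segmentation software is not given in the sources used here, doublets and imperfect outlines were not treated, and cells carry running numbers rather than barcodes. The members and gene lists were chosen with earlier results of these data known.

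Cells with at least 20 gene counts were kept, gated as the report states and summed per coverslip and population. Sums were compared with edgeR 4.0.16 in R 4.3.3 by the quasi-likelihood test, with coverslip as a block and the log of summed cell volume as offset. The block is part of the design because both populations lie on the same coverslip. P-values were adjusted over the 136 genes that no gate used, or 135 where Lyve1 also chose the cells. A called gene had an adjusted p below 0.05 and, where it was higher, exceeded every blank on every coverslip. Errors of log2 differences are standard errors. Sexes were compared with TMM library sizes. Position and shares were computed with Python 3.11.15, numpy 2.4.6 and scipy 1.17.1 and tested over the 4 coverslips. The coverslips' replicates may share litters or runs, which the labels do not say, and the p-values measure the spread between these coverslips.

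The 10 genes highest and lowest in each comparison were named, with the measured macrophage and microglia genes, except an item that is not reported here; Wls, Lrp5, Sdc4, Fzd7, Fzd9, the TCF and LEF factors, the Wnt ligands near the blanks, Glul and Aldoc, and the genes called between sexes, were named after their values were seen. Edge distance was taken to the outline of squares of 25 units that hold kept cells. The test was tried on simulated counts first. Alternatives were DESeq2 1.42.0, TMM factors and gene totals, a test against a 2-fold difference, no block, blank and count filters, thinned counts, other gate limits and leaving out each coverslip. Gates restricted to 1 Lyve1 class, cells away from Wnt5a-rich cells and low-signal squares were alternatives chosen after seeing the data.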

Additional observations from a re-analysis of the deposited data

Results flagged for a closer look

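In 5 of 97 values examined, 1 coverslip lay so far from the other 3 that its gap, as a share of the whole range, passed Dixon's critical value for 4 samples; chance alone gives about 1 in 20. In the comparison of Mrc1+ Csf1r+ cells with microglia, the log2 difference of P2ry12 was -0.78, -0.72, -0.74 and -0.07 on coverslips 1 to 4 (gap share 0.920), with coverslip 4 closest to microglia. Itgam had -0.78, -0.78, -0.75 and -0.43 (0.898), with coverslip 4 again apart. Lyve1-zero cells made up 45.0% of the gate on coverslip 4 and 30.7% to 37.3% on the others; their part in these values was not tested. Cx3cl1 had -0.74, -0.77, -1.36 and -0.80 (0.906), with coverslip 3 lowest, on coverslips that each pool a wild-type and a Cx3cl1(-/-) section. Ptprc had -0.05, 0.27, 0.30 and 0.31 (0.889), with coverslip 1 lowest. Between outer and inner Mrc1+ Csf1r+ cells, Cux2, a gene of upper-layer neurons, had -1.61, -1.71, -0.26 and -1.84 (0.850), with coverslip 3 apart.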

How the results depend on the processing

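Against microglia, 39 genes were higher and 28 lower in Mrc1+ Csf1r+ cells. The counts were 5 and 15 with Lyve1-zero cells only, 20 and 17 away from Wnt5a-rich cells, and 15 and 5 in a test against a 2-fold difference. Without the replicate block that pairs the populations of a coverslip they were 27 and 13, for Lyve1-high against Lyve1-zero cells 37 and 22, and for outer against inner cells 34 and 13. For Lyve1-high against Lyve1-zero cells the 43 higher and 23 lower genes became 0 and 0 with fewer than 3 Cx3cr1 counts (26 at an unadjusted p below 0.05) and 24 and 10 against a 2-fold difference. Away from Wnt5a-rich cells 36 were higher and 15 lower. The lower genes were 36 with gene totals and 37 with DESeq2. Outer against inner cells gave 36 and 16, which became 10 and 0 in Lyve1-high cells only, 1 and 2 with fewer than 3 Cx3cr1 counts, and 6 and 5 against a 2-fold difference; 4 were lower with at least 10 Mrc1 counts. Between sexes, 3 genes were called higher with cell volume and 1 with DESeq2. Leaving out each coverslip gave 35 to 44 higher and 26 to 28 lower genes against microglia, 37 to 42 and 19 to 24 between the Lyve1 classes, 31 to 47 and 14 to 17 between outer and inner cells, and 0 between sexes. With at least 10 Mrc1 counts or with fewer than 3 Cx3cr1 counts, the gate held 0.163% or 0.124% of kept cells, 11.1% or 8.79% of both gates, 70.6% or 69.8% Lyve1-high cells and 38.8% or 47.2% outer cells. The Lyve1-zero cells among those with fewer than 3 Cx3cr1 counts were outer in 25.6% to 48.1% per coverslip, against 6.17% to 11.0% of all Lyve1-zero cells. The excess of outer cells over microglia was then 33.0 or 41.4 points, 40.7 with Lyve1-high cells only and 3.08 with Lyve1-zero cells only. The median distance to a Wnt5a-rich cell was -13.9 units relative to microglia with Lyve1-zero cells only, and that to a vessel cell -24.7 with Lyve1-high and -0.304 with Lyve1-zero cells only. Log2 differences from microglia changed sign with Lyve1-zero cells only for Adgra2 (-0.036), Vim (-0.061), P2ry12 (0.35) and Tmem119 (0.16), and away from Wnt5a-rich cells for P2ry12 (0.11). C1qa changed sign with fewer than 3 Cx3cr1 counts (-0.10) and with gene totals (-0.016), and Ptprc with gene totals (-0.053) and DESeq2 (-0.028). Between the Lyve1 classes, P2ry12 (1.36), Sst (1.68), Tmem119 (0.29), Itgam (0.22) and C1qa (0.27) changed sign with fewer than 3 Cx3cr1 counts. Between outer and inner cells, Cx3cl1 (0.56), Bcl11b (0.036), Cux2 (0.25), Apc2 (0.10), Itgam (0.024), Tmem119 (0.48) and Apoe (-0.28) did so in Lyve1-high cells only. Lyve1 (-0.24), Tmem119 (0.15), Ptprc (0.12) and Apoe (-0.14) did so with fewer than 3 Cx3cr1 counts, and Ptprc, which spanned -0.36 to 0.041 when each coverslip was left out, without coverslip 4. The restrictions to a Lyve1 class, a count of Cx3cr1 or a distance leave fewer cells; beyond that the cause of these changes was not tested. Counts are limited for genes near the blank level, where counts per cell stay below 0.38.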
